A study of Homo sapiens and Mus musculus with 14 samples.

Results

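RIGI, IFIH1, DHX58, MAVS, ADAR, RNASEH2A, RNASEH2B, RNASEH2C and SAMHD1 form a group of 9 genes that detect RNA in the cytosol or remove nucleic acids that would set off that detection. Their accessible chromatin was examined in MDA-MB-436, an established human breast adenocarcinoma line, by ATAC-seq, in which a transposase cuts and tags open DNA. The genes were taken by name, and every ATAC-seq peak in a gene body (hg38) or within 20 kb on either side of it was collected. This gave 42 of 138915 peaks: 19 of 64806 in control cells, 12 of 39537 in SMARCAL1 knockout clone 1 and 11 of 34572 in SMARCAL1 knockout clone 2. The 9 genes were compared with 19866 protein-coding genes of the RefSeq annotation.

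The series asks how SMARCAL1, which uses ATP to remodel stalled forks of DNA replication, bears on innate immune signalling and PD-L1 expression. Control cells and clone 1 gave 3 libraries each, in batch 1, and clone 2 gave 2 libraries, in batch 2; the labels call the replicates biological and name no treatment. Each knockout group is a single clone, so the absence of SMARCAL1 and other features of that clone cannot be told apart, nor, for clone 2, the batch. The other 6 samples of the series, B16F10 mouse melanoma cells with Smarcal1 knocked out or reconstituted, were not analysed here.

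RIGI (the protein RIG-I) and IFIH1 (MDA5) are helicases that bind foreign or unmodified double-stranded RNA and then assemble MAVS, an adaptor on the mitochondrial membrane, into filaments that activate TBK1 and the interferon regulatory factors. DHX58 (LGP2) is a related helicase without the signalling domains and modulates the others. ADAR edits adenosine to inosine in double-stranded RNA, which keeps a cell's own RNA from being sensed. RNASEH2A, RNASEH2B and RNASEH2C encode the catalytic and accessory subunits of ribonuclease H2, which removes ribonucleotides and RNA strands from DNA. SAMHD1 hydrolyses deoxynucleotides and acts at stalled forks. Inherited mutations of ADAR, IFIH1, SAMHD1 or the ribonuclease H2 genes cause Aicardi-Goutières syndrome, an interferon-driven disease.

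The letters before the transcription start are shown for 5 genes because they cover each pattern of peaks at a start: RIGI and IFIH1 in all 3, MAVS in control and clone 1, ADAR in control only and RNASEH2A in none. They are RefSeq sequences (GRCh38.p14), 5′ to 3′ on the strand of the gene, with the last base next to the start, and capitals mark matches to the motifs searched. The stretches are chr9:32526197-32526446 (minus strand) for RIGI, chr20:3846584-3846833 (plus) for MAVS, chr1:154627998-154628247 (minus) for ADAR and chr19:12806334-12806583 (plus) for RNASEH2A. For IFIH1 only the 78 bases that separate its start from that of its neighbour GCA are shown, chr2:162318685-162318762 (minus).
RIGI: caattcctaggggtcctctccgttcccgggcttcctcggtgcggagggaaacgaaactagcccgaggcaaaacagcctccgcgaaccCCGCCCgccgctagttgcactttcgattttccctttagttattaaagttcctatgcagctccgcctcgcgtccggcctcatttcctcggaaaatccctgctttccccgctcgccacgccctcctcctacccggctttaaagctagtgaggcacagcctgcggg
IFIH1: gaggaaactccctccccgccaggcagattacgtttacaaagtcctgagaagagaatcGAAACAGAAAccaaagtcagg
MAVS: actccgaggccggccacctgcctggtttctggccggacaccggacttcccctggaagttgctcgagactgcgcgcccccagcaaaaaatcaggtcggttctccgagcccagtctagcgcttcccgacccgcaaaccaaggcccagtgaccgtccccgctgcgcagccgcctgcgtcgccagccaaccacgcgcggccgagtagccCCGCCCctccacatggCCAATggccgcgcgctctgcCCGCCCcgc
ADAR: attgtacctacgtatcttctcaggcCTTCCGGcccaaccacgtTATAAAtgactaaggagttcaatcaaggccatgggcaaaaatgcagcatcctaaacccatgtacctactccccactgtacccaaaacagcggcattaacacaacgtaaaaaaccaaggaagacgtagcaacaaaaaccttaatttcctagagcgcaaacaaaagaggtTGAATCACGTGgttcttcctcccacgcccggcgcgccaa
RNASEH2A: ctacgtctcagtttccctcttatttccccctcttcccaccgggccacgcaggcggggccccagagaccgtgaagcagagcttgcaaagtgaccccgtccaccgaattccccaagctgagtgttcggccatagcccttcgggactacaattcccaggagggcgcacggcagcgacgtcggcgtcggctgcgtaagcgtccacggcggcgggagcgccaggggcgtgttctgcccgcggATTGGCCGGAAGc
Motifs were searched on both strands of the table's windows, from 250 bases before to 50 after a start. A match describes letters and shows no binding. The core of the interferon-stimulated response element (GAAA, any 2 bases, GAAA), a site of interferon regulatory factors, was in 3.57% of 35116 such windows. IFIH1 was the only one of the 8 members with a listed start that held it, with 3 matches, beginning 21, 153 and 159 bases before the start, of which the more distant ones overlap each other. The match nearest the start is the one in capitals above.

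ADAR's outer window held an AP-1 site, TGANTCA (7.71% of windows), that overlaps an E-box, CACGTG (7.26%). It also held the ETS core CCGGAAG (10.3%) and the TATA box letters TATAAA (11.5%). MAVS had 3 GC boxes, GGGCGG (45%), and 1 CCAAT box (34.6%), and RNASEH2A had 1 ETS core beside 1 CCAAT box. RIGI had 1 GC box. TTCNNNGAA, the site of STAT dimers, was in 7.66% of windows and in none of the members', which says only that these letters are not there. RNASEH2A, with no peak at its start, had 36 CpG in its window, and RIGI, with one in every list, had 27. ADAR's outer start had 14 and IFIH1 12. The median of all windows was 14, with 1 and 37 at the 10th and 90th percentiles.

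The peaks came as 1 merged list for each group. The control list covered 33.2 Mb, the clone 1 list 22.3 Mb and the clone 2 list 8.37 Mb, and the median peak widths were 399, 453 and 200 bp. Each peak carries a score from the authors, with a minimum of 5.00 in control and clone 1 and 5.01 in clone 2. Its unit was read from the values as −log10 p. For 40.4% of control, 32.5% of clone 1 and 33.2% of clone 2 peaks it was recognisable as a mean over several calls. Read totals were not used here, so the depth behind each list is unknown, and with 1 list per group there is no replicate check and no test. Scores depend on depth and settings and are not compared between lists. For most peaks in the windows the percentile follows in brackets, the share of peaks of the same list that score lower. For the wider pathway the scores alone are given, in the order control, clone 1, clone 2, to describe each list by itself. Of the cell type markers, 7 of 9 basal or mesenchymal and 4 of 7 luminal breast genes had a control peak at a gene end. Among all protein-coding genes, 61.2% had one in control and 39.6% in all 3 lists. VIM and EGFR of the basal or mesenchymal genes and FOXA1 and EPCAM of the luminal genes had one in all 3 lists. CD44, AXL, KRT17, KRT8 and KRT18 had one in control only, while KRT5, KRT14, ESR1, GATA3 and PGR had none in any. KRT8 and KRT18 overlap and have the same control score, 5.76, so 1 peak may count for both. Gene-end peaks in control were found at 3 of 7 leukocyte genes (CD14 also in both clones) and at 3 of 5 melanocyte genes (MITF, DCT and PMEL, also in both clones). Of 5 endothelial or fibroblast genes, 1, PDGFRB, had one, in control only. A peak does not show expression.

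Gene-end peaks, defined as lying no more than 1000 bp from the first or last base of the gene, were present in control at all 9 members. Over all protein-coding genes the share was 61.2% in control, 50.7% in clone 1 and 43.4% in clone 2. Clone 1 had such a peak at 6 of the 9 genes and clone 2 at 5. RIGI, IFIH1, RNASEH2B, RNASEH2C and SAMHD1 had one in every list, as did 7876 of all genes. MAVS had one in control and clone 1, a pattern of 1726 genes. ADAR, DHX58 and RNASEH2A had one in control only, a pattern of 1932 genes. No member gained a gene-end peak, since all had one in control.

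Clone 1 thus lacked the gene-end peak at 3 of 9 members (33.3%, exact binomial 95% interval 7.49 to 70.1), against 21% of the 12160 genes that had one in control. Clone 2 lacked it at 4 of 9 (44.4%, 13.7 to 78.8), against 30.1%, and both clones lacked it at 3 of 9, against 15.9%. Intervals cover counting error only, and all 3 background shares lie within those of the members. The clone comparisons use the same control list. The counts depended on weak peaks: among peaks scoring at least 7, the gene-end peak was left at 5 members in control, and both clones had it at each of them. That limit cuts the lists unequally: 7.04 was the 62.2 percentile in control, 6.99 the 68.9 in clone 1 and 7.17 the 6.5 in clone 2. With the 3 lists brought to equal length by score, 7 members had a gene-end peak in control. Of these, ADAR lacked it in clone 1 and ADAR and MAVS in clone 2.

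**Figure D1:**
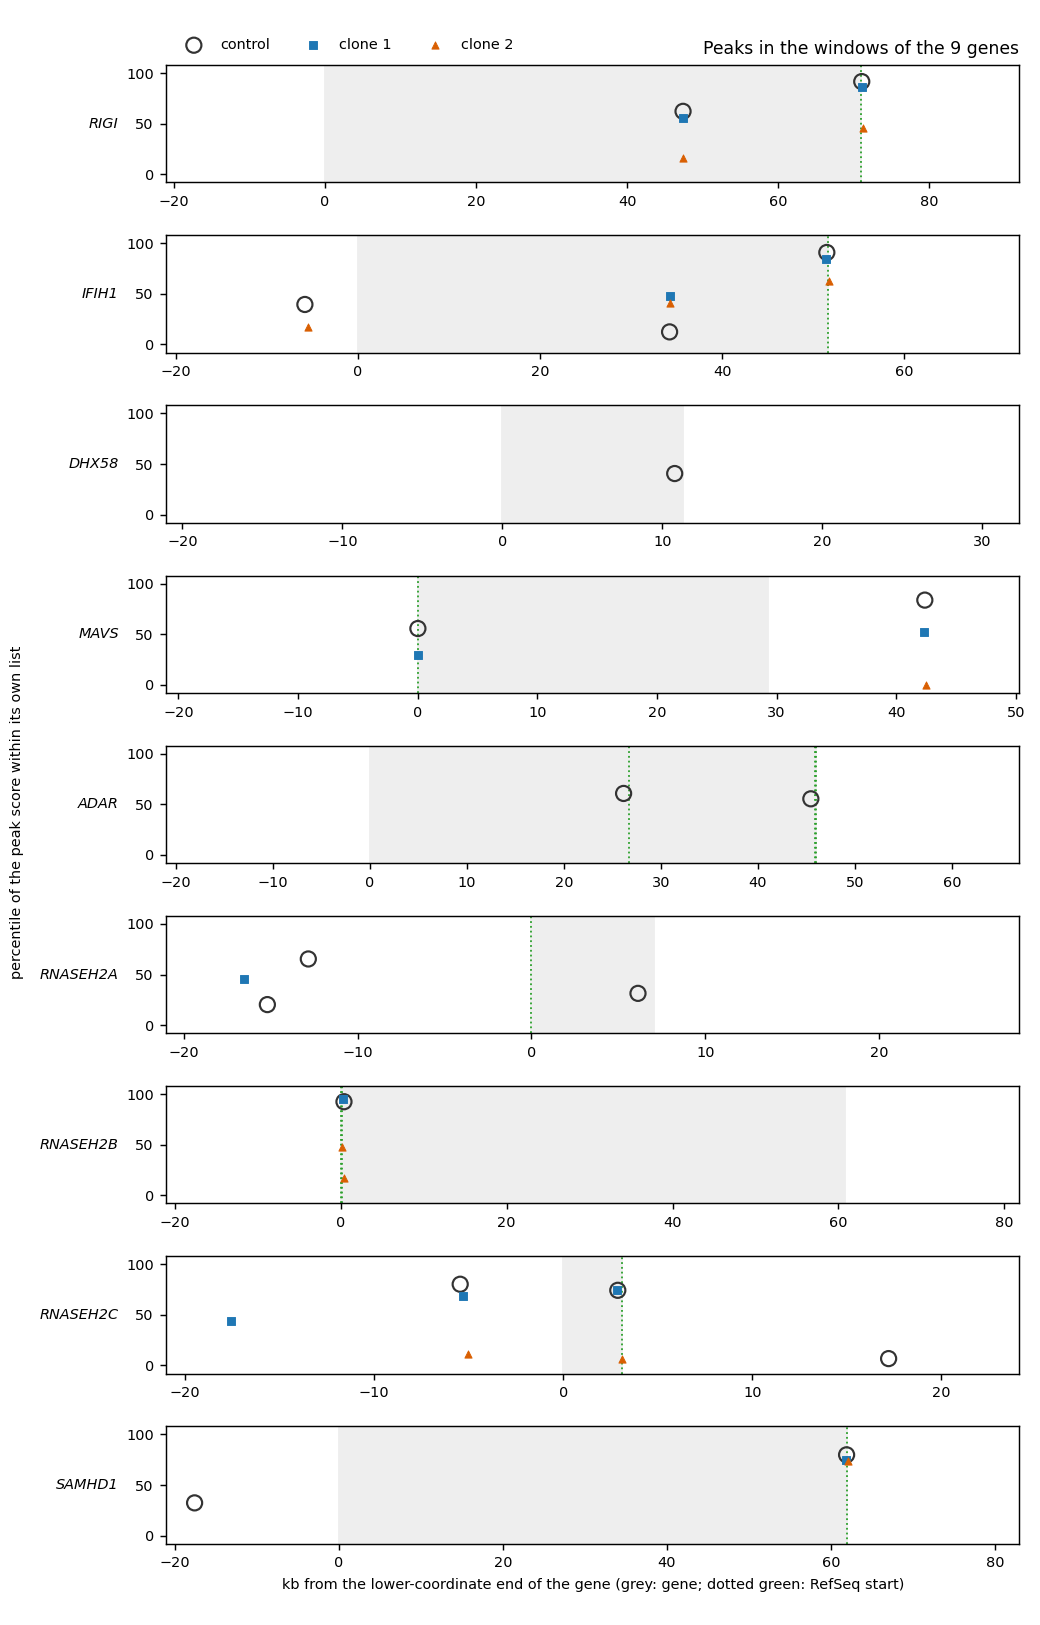
Peaks of the 3 lists in the window of each gene. The horizontal axis is the distance in kb from the lower-coordinate end of the gene (grey, gene body; dotted green, RefSeq starts, with none listed for DHX58), the vertical axis the percentile of the peak's score within its own list, and each symbol is 1 peak. RIGI, IFIH1, RNASEH2B, RNASEH2C and SAMHD1 have symbols of all 3 lists at a gene end, whereas the ADAR and DHX58 windows hold control symbols alone.

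The RNA sensor RIGI (chr9:32455302-32526196) lies on the minus strand and had a peak across its start in every list. In control it was chr9:32525939-32526767, with a score of 14.01 (91.6 percentile). In clone 1 it was chr9:32525963-32526789, with 8.99 (86.3), and in clone 2 chr9:32526196-32526710, with 10.59 (45.5). The clone 1 peak overlapped 97.1% of the control peak, whereas the clone 2 peak, which reached from the first transcribed base into the upstream region, overlapped 62.1%. Of 1097 control gene-end peaks scoring within 10% of it, 98.5% were found in both clones. A further peak lay inside the gene, 23307 bp downstream of the start (chr9:32502502-32502889 in control). It was in all 3 lists too, with scores of 7.04 (62.2 percentile), 6.28 (55.3) and 8.22 (16.3), and its clone 1 and clone 2 peaks lay wholly within the control peak. Control peaks away from gene ends with a score like that were found in both clones in 23.6% of 9536 cases. The window held no other peak in any list.

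IFIH1 (chr2:162267074-162318684, minus strand) shares its start region with GCA, a calcium-binding protein gene whose annotated start lies 78 bases away on the plus strand, so a peak there belongs to both genes. The control peak, chr2:162317819-162319317, was the widest at a member's end at 1499 bp and scored 13.61 (90.9 percentile). Clone 1 had a peak of 1488 bp there with 8.64 (84.1), and clone 2 one of 480 bp with 12.32 (62.6). In every list the peak covered the whole window with its 3 response element matches, although that of clone 2 overlapped only 32.0% of the control peak. Inside the gene, 17247 bp from the start, was a weak control peak (chr2:162301181-162301437) with a score of 5.10 (12.4 percentile). Both clones had a peak over it, at 6.07 (48.3) in clone 1 and 10.27 (41.0) in clone 2. Of 19263 control peaks away from gene ends with a like score, 3.23% were found in both clones. Beyond the 3′ end, a control peak at chr2:162261204-162261348 (5.84) was in neither clone. The clone 2 peak nearest to it (chr2:162261595-162261745, 8.34) did not overlap it and was absent in control.

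DHX58 (chr17:42101411-42112714) had a single peak in its window, chr17:42112016-42112348, in control only. Its score was 5.84 (40.6 percentile). It lies inside the gene, 366 bp from the end that faces KAT2A, an acetyltransferase gene, and within 1000 bp of the nearer end of KAT2A as well. The table lists no start for DHX58. Control gene-end peaks of like score were absent in both clones in 52.9% of 2567 cases, and in 69.9% of 485 when the width was also within 25%. Absence in both clones was thus the more frequent outcome for control peaks like that of DHX58.

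MAVS (chr20:3846834-3876118, plus strand), the adaptor on which RIGI and IFIH1 converge, had a peak across its start in control and clone 1 and none in clone 2. The control peak, chr20:3846405-3847307, scored 6.62 (55.6 percentile) and the clone 1 peak, chr20:3846579-3847163, 5.51 (29.5). The clone 1 peak lay within the control peak and overlapped 64.8% of it. Among 2225 control gene-end peaks of like score, 56.7% were found in clone 1 and 39.5% in clone 2. The pattern at MAVS therefore follows the more frequent outcome in each clone. The window also reached the start of PANK2, a pantothenate kinase gene, where all 3 lists had a peak. It scored 10.57 (83.7 percentile) in control, 6.15 (52.2) in clone 1 and 5.25 (0.1) in clone 2, where it was among the weakest peaks of the list.

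**Figure D2:**
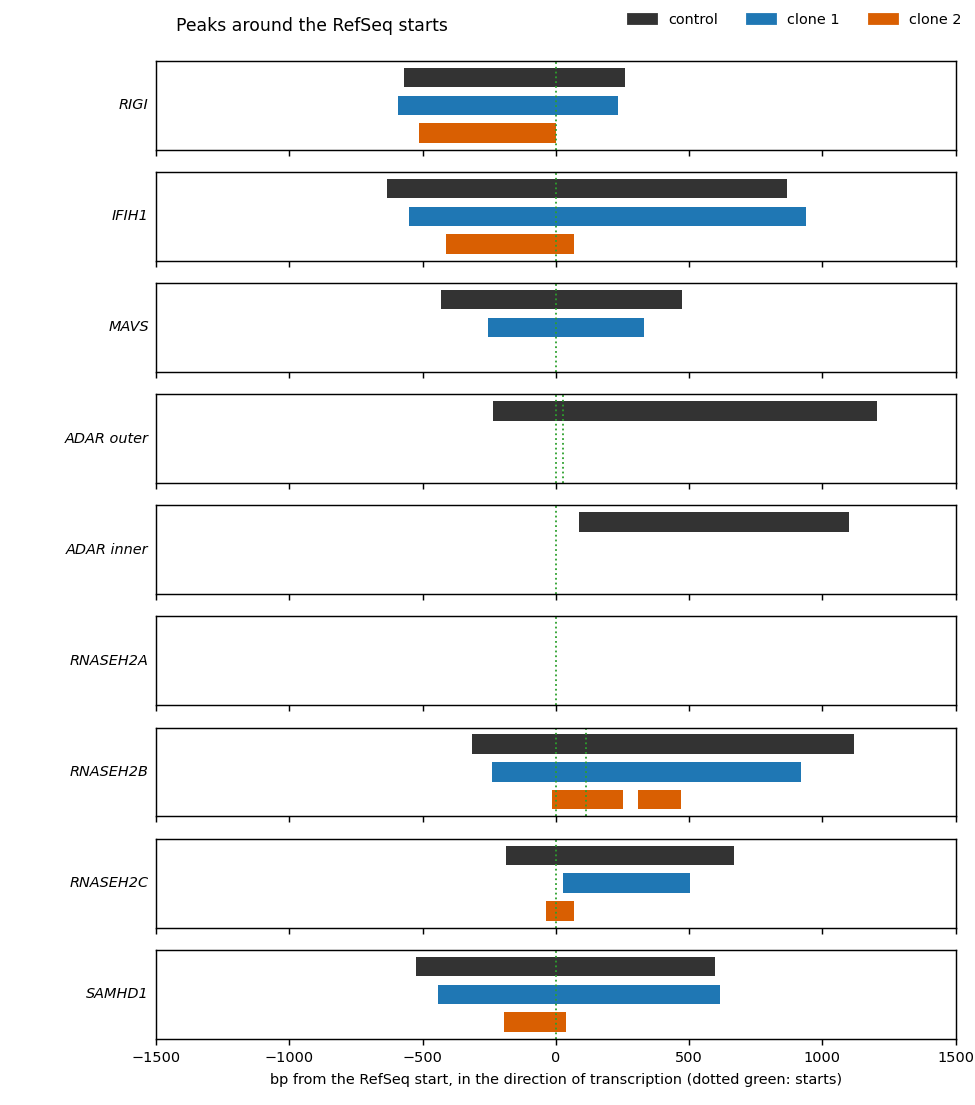
Peaks around the RefSeq starts of 8 members, drawn to scale in bp in the direction of transcription (bars, 1 row per list in the order control, clone 1, clone 2; dotted green, starts; ADAR is shown at its outer and inner starts). Control bars at RIGI, IFIH1, RNASEH2B, RNASEH2C and SAMHD1 have bars of both clones under them, those at both ADAR starts have none, and RNASEH2A has no bar.

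ADAR (chr1:154582057-154627997, minus strand) had no peak of either clone anywhere in its window. Control had 2, both wide. The outer one, chr1:154626793-154628231, was 1439 bp wide, scored 6.61 (55.5 percentile) and spanned 2 listed starts. The inner one, chr1:154607697-154608710, was 1014 bp wide, scored 6.91 (60.8) and began 87 bp downstream of another listed start inside the gene. ADAR is known to be transcribed from a constitutive and from an interferon-inducible promoter; the files do not say which start is which. Both control scores have more digits than a single call carries, so each is a mean over several merged calls.

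These ADAR peaks were wide for their scores. Of the 2230 control gene-end peaks scoring like the outer one, 32.7% were absent in both clones. When the width was also within 25%, it was 13.9% of 425. For the inner peak, among peaks away from gene ends, the shares were 44.1% of 10194 by score and 15.1% of 723 by score and width. Peaks beside a listed start inside a gene, such as this one, were not set apart within that class. Of all 5146 control gene-end peaks at least 1000 bp wide, a set not matched for score, 3.52% were absent in both clones. IFIH1, RNASEH2B and SAMHD1 also had control gene-end peaks over 1000 bp wide. Both clones had a peak at each of these, whose control scores of 9.57 to 14.67 were above the 6.61 of ADAR. Of the 3 members with a gene-end peak in control only, ADAR was the one whose loss was least frequent among control peaks of like score and width.

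RNASEH2B (chr13:50909678-50970460, plus strand) had the strongest control peak of the group, chr13:50909364-50910796, with a score of 14.67 (92.5 percentile). The clone 1 peak, chr13:50909438-50910597, scored 12.30 (95.6) and lay wholly within it. Clone 2 had 2 narrow peaks in place of the wide one. The first, chr13:50909664-50909931, crossed both listed starts and scored 10.74 (47.5), and the second, chr13:50909988-50910146, scored 8.28 (17.2). They overlapped 18.7% and 11.1% of the control peak. The lncRNA RNASEH2B-AS1 overlaps these peaks, and no other peak lay in the window, so RNASEH2B had the lowest control density, 0.992 peaks per 100 kb.

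RNASEH2C (chr11:65717673-65720798, minus strand) is the shortest member at 3.13 kb and overlaps KAT5, an acetyltransferase gene, at its 3′ end, so that the control and clone 1 peaks described next also lie within 1000 bp of the end of KAT5. Its control peak, chr11:65720132-65720984, spanned the start and scored 8.44 (74.3 percentile). The clone 1 peak, chr11:65720295-65720771, scored 7.52 (74.7) and stopped 27 bp inside the gene. The clone 2 peak, chr11:65720730-65720836, was 107 bp wide, covered the start and scored 7.17 (6.5). Control gene-end peaks of like score were found in both clones in 64.8% of 1687 cases. The peak at the start of KAT5 (chr11:65711564-65712874 in control) was in all lists, with 9.67 (80.3), 6.99 (68.9) and 7.90 (11.4). A weak control peak upstream (5.06) was in neither clone, and a clone 1 peak at the far side of KAT5 (chr11:65699953-65700231, 5.90) was in clone 1 only. RNASEH2C had the highest control density of the group, 6.96 peaks per 100 kb of window.

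RNASEH2A (chr19:12806584-12813640, plus strand), the catalytic subunit, had no peak at its start in any list. Its control gene-end peak, chr19:12812632-12812793, lay 6048 bp downstream of the start and 847 bp before the 3′ end, was 162 bp wide and scored 5.58 (31.4 percentile). It is therefore a peak near the 3′ end and not at the promoter. Of 10013 genes with a listed start and a control gene-end peak, 5.02% likewise had no control peak within 1000 bp of a start. Neither clone had the 3′ peak. Of 376 control gene-end peaks of like score and width, 88.8% were absent in both clones. In the upstream flank, control had peaks at both ends of JUNB, an AP-1 factor gene. That at its 3′ end (chr19:12793409-12794087) scored 7.35, and that at its start (chr19:12791308-12791476), also within 1000 bp of an end of HOOK2, scored 5.24. Neither was in a clone, and the one clone 1 peak of the window (chr19:12789926-12790117, 5.96), inside HOOK2, was absent in control and clone 2.

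SAMHD1 (chr20:36889773-36951708, minus strand) had a peak across its start in every list. The control peak, chr20:36951112-36952232, scored 9.57 (79.9 percentile) and the clone 1 peak, chr20:36951094-36952151, scored 7.51 (74.6). The clone 2 peak, chr20:36951669-36951904, was 236 bp wide and scored 14.08 (74.2). It was the highest in rank of the clone 2 peaks in these windows and lay wholly within the control peak. Control gene-end peaks of like score were found in both clones in 80.2% of 1528 cases. A weak control peak in the flank beyond the 3′ end (5.62) was in neither clone. The gene body of 61.9 kb held no peak other than that at its start.

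When only listed starts were considered, 7 members had a control start peak; DHX58 has no listed start and RNASEH2A no start peak. ADAR alone lacked it in clone 1, and ADAR and MAVS lacked it in clone 2. Over all genes with a control start peak the shares were 19.1% in clone 1, 26.8% in clone 2 and 13.8% in both. The 3 members with a gene-end peak in control only thus differ in kind: a wide peak at the starts of ADAR, a narrow weak one near an end of DHX58 and a narrow weak one near the 3′ end of RNASEH2A.

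Over the whole windows, 9 of 19 control peaks (47.4%, 24.4 to 71.1) were absent in clone 1, against 57.9% of all control peaks. In clone 2 it was 10 of 19 (52.6%, 28.9 to 75.6), against 57.1%. Absent in both clones were 9 of 19 (47.4%), against 46.7% of all control peaks. These are the same 9 that clone 1 lacked, and MAVS accounts for the tenth in clone 2. Over the whole control list, 30248 of the 37494 peaks absent in clone 1 were absent in clone 2 as well. Of the 9 member gene-end peaks, 3 were absent in clone 1 (background of control gene-end peaks 27.7%), 4 in clone 2 (36%) and 3 in both (21.8%). Peaks at the ends of neighbouring genes numbered 4, of which those at PANK2 and KAT5 were in both clones and those beside JUNB in neither. Of the 6 peaks away from gene ends, 4 were absent in each clone and in both, against 64.7% in clone 1, 61.9% in clone 2 and 52.3% in both. Among those 4 is the inner ADAR peak, which lies beside a listed start. The 2 that were kept lay inside RIGI and IFIH1. The exact interval of each share holds its background, but with 4 to 19 peaks in a set the intervals are wide. These counts therefore cannot tell the windows from the background.

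**Figure D3:**
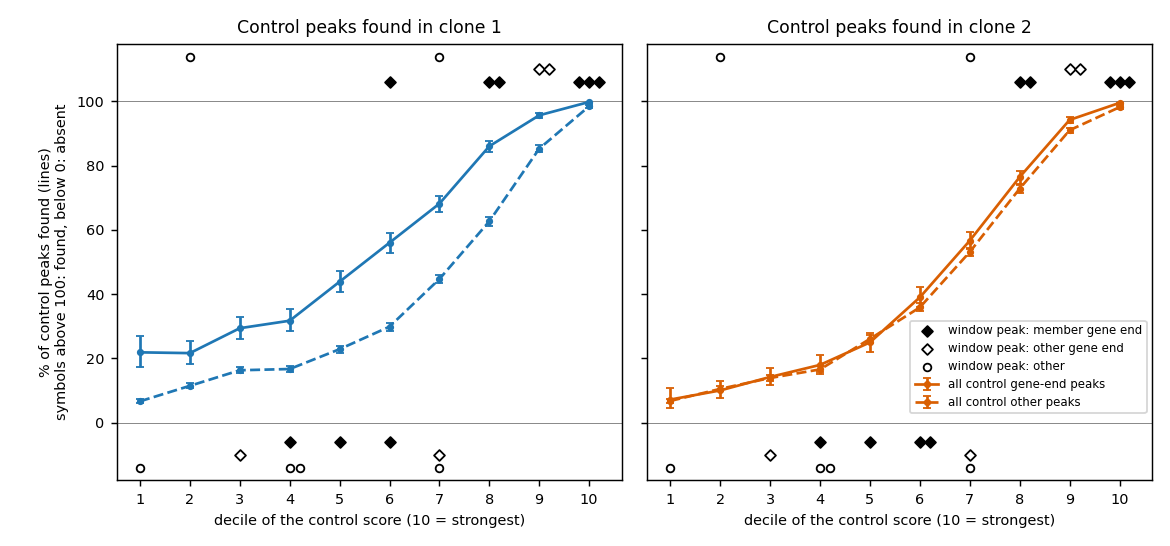
Share of control peaks found in clone 1 (left) and clone 2 (right) by decile of the control score, for all control peaks at gene ends and elsewhere (lines, with exact binomial 95% intervals), in percent. The 19 control peaks of the windows are the symbols above 100 where found and below 0 where absent, spread sideways within a decile. In both panels the member gene-end peaks found in the clones lie in deciles 8 to 10, except that of MAVS in clone 1, and those absent in deciles 4 to 6.

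At the ends of the members, the peaks found in both clones were those with higher control scores. The 5 member gene-end peaks found in both clones scored 8.44 to 14.67 in control, and the 4 absent in 1 or both scored 5.58 to 6.62. The weakest control score of the kept peaks was that of RNASEH2C and the strongest of the lost peaks that of MAVS. In the decile that holds MAVS and ADAR, 56.0% of all control gene-end peaks were found in clone 1 and 39.0% in clone 2. In the strongest decile, with RIGI, IFIH1 and RNASEH2B, the shares were 99.9% and 99.6%. The median control score of the members' gene-end peaks, 8.44, was near the 8.32 of all control gene-end peaks, as was their median width, 903 against 915 bp.

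Peaks of the clones that control did not have were few. Clone 1 had 2 of 12 window peaks without a control peak, inside HOOK2 and beyond KAT5, against 30.7% of its list. Clone 2 had 1 of 11, in the flank of IFIH1, against 11.1%. None lay inside a member gene. Every clone 2 peak that overlapped a control peak lay wholly within it, and covered 11.1% to 62.1% of it. Clone 1 peaks covered 55.9% to 97.1% of the control peak they overlapped.

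The wider pathway was described through 76 genes in 6 lists, all found in the table. Of these, 57 had a control gene-end peak (75.0%, 63.7 to 84.2, against 61.2% of all genes). Clone 1 lacked it at 10 (17.5%, 8.75 to 29.9), clone 2 at 16 (28.1%, 17.0 to 41.5) and both at 8 (interval 6.26% to 25.8%). These shares are close to the backgrounds of 21%, 30.1% and 15.9% given above.

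The lists differed in their median control score and in the number of losses. Among 14 genes of RNA decay and processing, 12 had a control peak, with a median score of 13.4, and 11 had one in all lists. Over all genes, 61.2% had one in control and 39.6% in all lists, against 85.7% (57.2 to 98.2) and 78.6% (49.2 to 95.3) here. The 4 with the highest control scores are the mitochondrial RNA phosphorylase PNPT1 (28.41 in control, 13.45 in clone 1, 40.19 in clone 2), the exosome nuclease DIS3 (28.65, 16.27, 31.48), the microRNA processor DROSHA (24.37, 18.11, 30.34) and the decapping enzyme DCP2 (16.49 in control, 27.46 in clone 2).

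Among 11 genes of signalling below MAVS, 7 had a control peak (63.6%, 30.8 to 89.1, against 61.2% of all genes), with a median score of 6.13. The peak was absent in both clones at IKBKE, a kinase (6.02), and at the interferon regulatory factor genes IRF5 (6.39) and IRF7 (6.13). TRAF6, a ubiquitin ligase (15.76, 13.36, 17.78), TBK1 (13.11, 5.92, 10.13) and IKBKG (5.87, 5.56, 7.37), which has a near-identical copy nearby and is uncertain for that reason, kept it. The peak was thus absent in both clones at 3 of 7 genes (42.9%, 9.90 to 81.6), an interval that holds the 15.9% of all genes, in a list whose median control score was the lowest of the 6.

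Among 15 regulators of RNA sensing, 13 had a control peak (86.7%, 59.5 to 98.3) and 10 had one in all lists (66.7%, 38.4 to 88.2). Over all genes the shares were 61.2% and 39.6%, which both intervals hold. RNF125, a ligase that marks RIG-I for degradation, scored 32.91, 14.87 and 18.27, and the stress granule protein gene G3BP1 scored 26.48, 17.39 and 30.42. The helicase DDX3X scored 14.46, 9.76 and 11.17, and ZNFX1 scored 13.89, 9.22 and 8.14. NLRX1, which encodes a mitochondrial protein (5.87), had its peak in control only.

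Double-stranded RNA effectors had a control peak at 11 of 14 genes (78.6%, 49.2 to 95.3, against 61.2% of all genes). Of these 11, 6 kept it in both clones and 3 lost it in both (27.3%, 6.02 to 61.0, against 15.9%). PRKRA, an activator of the kinase PKR, scored 30.71, 15.29 and 24.26, DHX15 15.05, 9.24 and 10.38, and DHX33 9.01, 5.92 and 8.06. Both clones lacked it at ADARB1, another editing enzyme gene (5.42), and at the oligoadenylate synthetase genes OAS3 (5.38) and OASL (8.74). At OASL, clone 1 had a peak that overlapped the control peak but lay more than 1000 bp from the gene's ends. Nucleases and nucleotide pool genes had a control peak at 11 of 14 (78.6%, 49.2 to 95.3, against 61.2% of all genes). Of these 11, 7 kept it in both clones and 1, DNASE2 (5.56), lost it in both (9.09%, 0.23 to 41.3, against 15.9%). RNASEH1, the other ribonuclease H, had the highest control score of all the genes listed (36.06, with 23.13 in clone 1 and 48.04 in clone 2). EXO1 (17.86, 10.71, 20.67), TOP1 (17.79, 14.36, 20.73) and DNASE1 (14.74, 8.48, 12.77) were also in all lists.

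Endosomal RNA sensing had a control peak at 3 of 8 genes (37.5%, 8.52 to 75.5), against 61.2% of all genes. IRAK4, a kinase (19.72, 13.02, 22.98), and UNC93B1, a receptor chaperone (5.11, 5.27, 7.73), had one in all lists.

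Control had no gene-end peak at 19 pathway genes, and clone 1 had one at 6 of these (31.6%, 12.6 to 56.6), against 5.98% of all genes that lacked it in control. They are MYD88, the adaptor of Toll-like receptors (12.04), TANK (7.68), IRF3 (6.35), CNPY3 (5.36), LGALS9 (5.27) and ZBP1 (5.05), and were named after their values were seen. In clone 2 none of the 19 had one (exact upper limit 17.6%; 3 counts of 19 would be 15.8%), against a background of 1.57%. None gained a peak in both clones, against 0.571% of the 7706 genes without one in control. The clone 1 count depended on the gene-end window, a check chosen after seeing the data. Within 3000 bp it was 1 of 12 genes (8.33%), close to the 8.98% of all genes without a control peak there. That gene was LGALS9, so control had a peak within 3000 bp of an end of MYD88, TANK, IRF3, CNPY3 and ZBP1. Within 500 bp the clone 1 count was 3 of 22 (13.6%, against 4.69%), and at RefSeq starts 2 of 10, against 5.55%. With lists of equal length the clone 1 count was 9 of 29 (31.0%, against 9.49%), in part at other genes. Among peaks scoring at least 7 it was 4 of 38 (10.5%, against 2.0%), also in part at other genes.

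**Figure D4:**
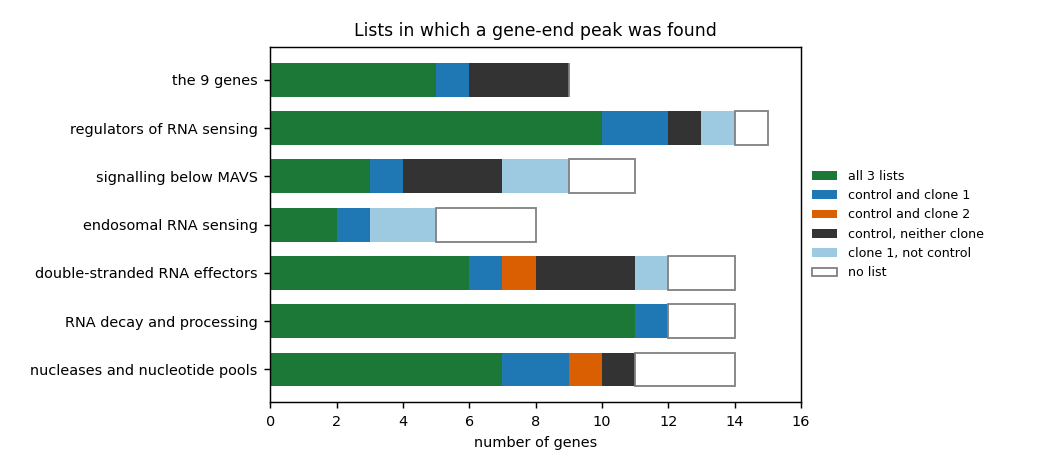
Number of genes by the lists in which they had a gene-end peak, for the 9 genes and the 6 pathway lists (horizontal axis, number of genes; colours, the combination of lists; white, no list). RNA decay and processing has 11 of 14 genes in all 3 lists, and signalling below MAVS has 3 of 11 in control but neither clone.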

How the data were processed

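The deposited peak lists hold a chromosome, start, end and score per peak; the authors merged the replicates of each group into 1 list, per the labels. The submitters' processing notes name HISAT2, MACS2 and ChIPseeker beside hg38 and mm10 (tool versions: not given in the sources used here). Score units were read from the values: frequent deposited scores fall on Poisson tails at whole pileups, so they are taken as −log10 p. A score with over 5 decimals (batch 1) or 6 significant digits (batch 2) was taken as a mean over calls.

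Positions were converted to count from 1. Gene positions and starts came from RefSeq tables of GRCh38.p14, whose primary chromosomes have hg38 coordinates; genes on other contigs were left out, and 8 of 9 members had a listed start. Peaks sharing at least 1 bp counted as found. Overlap code was tested on simulated data. Python 3.11.15 with pandas 2.3.3 and scipy 1.17.1 was used. Members, lists and motifs were chosen with earlier results of these data known. All members were named, as were neighbours whose own end holds a window peak; of the lists, genes that lost or gained a peak in both clones, and up to 4 with the highest control scores among those with a peak in all 3 lists (1 of these is not reported here).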

Additional observations from a re-analysis of the deposited data

How the results depend on the processing

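Of 100 counts recomputed under other settings, 53 stayed within 1.5 times the reported one. Only peaks scoring at least 7: a control gene-end peak was left at 5 members, and 0 of these lacked it in clone 1, in clone 2 or in both. Pathway genes without one numbered 13 of 38 in clone 1 (34.2%, against 17.5% with all peaks), 4 in clone 2 and 4 in both. Loss shares over all genes were not computed at this limit, so the clone 1 share has no background beside it. A score near 7 ranked high in clone 1 (6.99, 68.9 percentile) and low in clone 2 (7.17, 6.5). For window peaks the limit held for the peaks counted, while an overlapping peak of any score in the other list counted as found. Window peaks absent in clone 1, clone 2 and both were then 1, 1 and 1 of 9, with 0 clone 1 peaks absent in control. Peaks below 7 that counted as found lay inside RIGI (6.28), at PANK2 (6.15) and at KAT5 (6.99) in clone 1. In clone 2 there was that at PANK2 (5.25). With every list cut at 7, more window peaks would be absent in each clone. With lists of equal length, ADAR alone lacked its peak in clone 1 and in both (1 of 7) and ADAR and MAVS in clone 2 (2 of 7). Pathway losses were then 4, 10 and 3 of 47, window losses 3, 4 and 3 of 12, and 2 clone 2 peaks were absent in control. Loss shares over all genes were not computed for lists of equal length. With RefSeq starts, member losses were 1, 2 and 1 of 7. A gene-end window of 500 bp left out the RNASEH2A peak. Pathway genes with a peak in clone 1 and none in control, first 6 of 19, were 3 of 22 within 500 bp, 1 of 12 within 3000 bp and 2 of 10 at RefSeq starts. They were 9 of 29 with lists of equal length and 4 of 38 with a score of at least 7. For this count, these settings were chosen after seeing the data. With clone peaks that overlap the control peak counted wherever they lie, OASL left the genes without a clone 1 peak.

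Flanks of 10 kb gave 5, 6 and 5 of 14 window peaks absent and 0 clone 1 peaks absent in control; flanks of 50 kb gave 18, 21 and 15 of 40, with 5 and 2 clone peaks absent in control. Gene bodies alone gave 4, 5 and 4 of 12, with 0 and 0; these counts follow the number of peaks taken. An overlap of at least 50% raised the peaks absent in clone 2 to 18 of 19, since clone 2 peaks are narrow. With a gap of up to 500 bp allowed, 0 clone 2 peaks were absent in control. Among recognisable means, chosen after seeing the data, 3 of 7 control peaks were absent in clone 1, in clone 2 and in both, and 0 of 5 clone 1 and 0 of 3 clone 2 peaks were absent in control. No paired analysis was possible because each group is 1 merged list and no result comes from a test, and for the same reason no replicate could be left out.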
